A study of Mus musculus with 6 samples.

Results

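Expression of the DNA replication machinery was examined in whole mouse cerebellum at postnatal day 7. The list held 49 genes chosen by symbol for their known roles in copying DNA, and 48 of them were measured among the 22180 genes tested. The remaining gene, Rfc4, shares its only probe set with Eif4a2 and was not analysed here. The wild-type group was 3 arrays from Math1Cre mice with wild-type Crebbp, and the knockout group was 3 arrays from Math1Cre::CrebbpFl/Fl mice, in which both Crebbp alleles are floxed. Every sample thus carries Cre under Math1 (Atoh1), a gene of granule neuron precursors, and recombination is limited to cells with a history of that driver, while whole cerebellum also holds cells outside that lineage. CREBBP acetylates histones and other proteins and serves CREB and further transcription factors as a cofactor, and the question here is what its deletion does to the genes that copy the genome.

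Before S phase, the origin recognition complex, CDC6 and CDT1 load the ring of MCM proteins at each origin, a step called licensing, and geminin blocks CDT1 once S phase has begun. The kinases CDC7-DBF4 and cyclin E-CDK2 then start the helicase by helping CDC45 and the GINS complex to join it. Primase, the polymerases, the PCNA clamp with its loader, the single-strand binding protein RPA, ligase and the enzymes that make deoxynucleotides complete the copy. Many of these genes are transcribed under E2F control as cells enter S phase. In the early postnatal cerebellum the granule neuron precursors of the outer layer are the main dividing population, driven by Sonic hedgehog.

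Most of the machinery differed little between the genotypes. Crebbp itself, read by 1 probe set, stood at 11.96, 11.99 and 11.90 in wild type and 11.46, 11.42 and 11.32 in knockout and fell by 0.56 on the log2 scale (SE 0.05, limma adjusted p = 0.000354). 2 of 48 members fell in the knockout (4.17%, against 3.94% of all genes tested), 0 rose (against 2.72%) and 46 did not pass the threshold, under which 6.67% of all genes passed in either direction and which was a limma adjusted p under 0.05 over all genes. The members that fell were Cdt1, the licensing factor, and Uhrf1, which reads hemimethylated DNA behind the fork and recruits the maintenance DNA methyltransferase. At an unadjusted p under 0.05 in the same limma fit, 10 members were lower and 1 was higher (20.8% and 2.08%, against 10.9% and 9.57% of all genes). At an adjusted p under 0.10, Pcna and Cdc7 joined them, which makes 4 members lower (against 5.82% of all genes). All 48 members had a mean level above the lower quartile of probe sets (6.02), from 7.10 to 11.44. Values are log2 expression values of a probe set, and differences are knockout minus wild type on that scale. The median difference was -0.04 over the members and -0.003 over all genes. The 95% confidence interval lay wholly within a 1.3-fold change in either direction for 46 of 48 members and within 1.2-fold for 35, against 71.4% and 40.8% of all genes tested. The exceptions at 1.3-fold were Cdt1 and Uhrf1. The labels do not state whether each array came from its own animal, so the p-values speak only of the spread among these arrays, some of which may be technical. In bulk tissue, fewer cells of a type and less RNA per cell cannot be told apart.

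**Figure D1:**
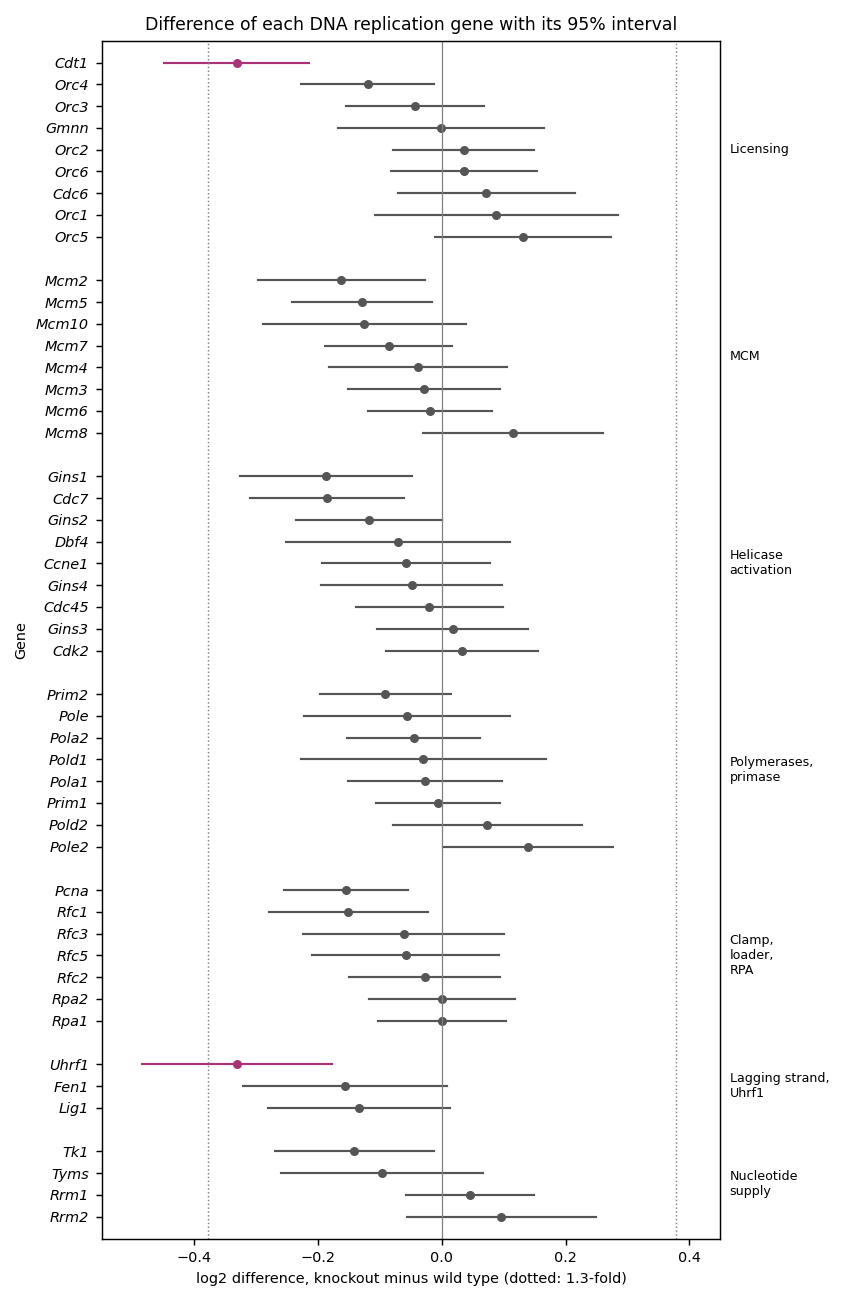
Log2 difference between knockout and wild type for each of the 48 measured replication genes (points) with its 95% confidence interval (lines), grouped by role and ordered by difference, with dotted lines at a 1.3-fold change. Cdt1 and Uhrf1, drawn in purple, are the members past the threshold, both at -0.33, and the other intervals stay between the dotted lines.

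Upstream sequence was examined because E2f1 and E2f2 were lower in the knockout, and the E2F factors bind many replication genes. Mouse RefSeq windows (GRCm38.p6) were matched by symbol for 41 of the 49 genes, 40 of them measured, and the 250 bases before each annotated start were searched. The words searched on both strands were TTTCCCGC, TTTCGCGC, TTTGCCGC and TTTGGCGC, which are forms of the E2F consensus and can overlap one another. At least 1 word stood before a start of 11 of 40 members (27.5%), namely Orc1, Orc3, Cdc6, Mcm5, Mcm6, Mcm7, Gins3, Cdk2, Pola1, Rfc3 and Uhrf1, against 2.70% of 16990 tested genes with a window and 1.86% of all 32851 windows. Windows of 4 members are shown: both members that fell, and the MCM genes with the most words. Each is written 5′ to 3′ on the gene's strand, ends at the last base before the start, and has the E2F words in capitals.
Cdt1 (GRCm38.p6, chr8:122567765-122568014, plus strand): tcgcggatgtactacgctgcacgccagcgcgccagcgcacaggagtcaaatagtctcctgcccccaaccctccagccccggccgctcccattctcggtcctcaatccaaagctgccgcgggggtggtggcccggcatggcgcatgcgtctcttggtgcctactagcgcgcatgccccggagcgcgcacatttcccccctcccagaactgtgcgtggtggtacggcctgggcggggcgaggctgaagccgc
Uhrf1 (GRCm38.p6, chr17:56304063-56304312, plus strand, before the downstream one of its annotated starts): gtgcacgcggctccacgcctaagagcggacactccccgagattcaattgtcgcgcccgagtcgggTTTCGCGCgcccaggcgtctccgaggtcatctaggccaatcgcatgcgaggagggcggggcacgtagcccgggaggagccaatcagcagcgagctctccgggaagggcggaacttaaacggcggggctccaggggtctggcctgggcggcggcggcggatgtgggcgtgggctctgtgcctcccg
Mcm6 (GRCm38.p6, chr1:128359706-128359955, minus strand): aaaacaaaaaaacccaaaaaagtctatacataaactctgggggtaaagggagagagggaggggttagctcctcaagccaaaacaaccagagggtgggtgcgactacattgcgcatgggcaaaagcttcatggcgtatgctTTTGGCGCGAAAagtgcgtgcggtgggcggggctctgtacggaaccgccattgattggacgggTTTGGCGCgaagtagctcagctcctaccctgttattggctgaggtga
Mcm5 (GRCm38.p6, chr8:75109259-75109508, plus strand): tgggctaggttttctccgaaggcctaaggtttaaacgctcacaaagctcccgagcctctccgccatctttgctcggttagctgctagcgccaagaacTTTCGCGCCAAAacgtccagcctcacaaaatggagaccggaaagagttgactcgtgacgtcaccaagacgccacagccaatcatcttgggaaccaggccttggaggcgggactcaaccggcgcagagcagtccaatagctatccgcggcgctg
The Cdt1 window holds 0 of these words and the Uhrf1 window 1, while the Mcm6 window holds 3 and the Mcm5 window 2, some of them overlapping. The window before the other annotated start of Uhrf1 holds 0. The median difference was -0.03 over the 11 members with a word and -0.05 over the 29 without, and 1 member fell in each set. Over all tested genes with a window, 21 of 459 with a word fell (4.58%) and 643 of 16531 without (3.89%). In the same sets 8 and 444 genes rose, and the median differences were -0.009 and -0.003. The CRE word TGACGTCA, bound by CREB, stood before 2 of 40 members (5%) and 2.30% of tested genes. CCAAT boxes (CCAAT) stood before 25 members (62.5%) and 38.7% of tested genes, and the CHR word TTTGAA of mitotic promoters before 6 members (15%) and 16.1%. A match describes these letters only and is no evidence of binding. Likewise, a window without a word is no evidence that a site is absent. Only exact words were searched, and 50 bases after each start were left out.

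Of the 9 licensing genes, 4 had differences below 0 and 5 above, with a median of 0.04. The largest difference of the whole list, that of Cdt1, was almost equal to that of Uhrf1 (both -0.33). Cdt1 read 9.14, 9.08 and 9.14 in wild type and 8.81, 8.79 and 8.75 in knockout. All 3 knockout arrays lay below all wild-type arrays, and each group was narrow. Cdt1 fell by 0.33 on the log2 scale (SE 0.05, limma adjusted p = 0.00599), a 1.26-fold difference with a 95% interval of 1.16 to 1.36. It passed whichever array was left out, with an adjusted p of 0.0151 to 0.0376.

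Its inhibitor and its partners in loading did not pass. Gmnn, which encodes geminin, had a difference of -0.002 (95% interval -0.17 to 0.16), with 7.61, 7.60 and 7.62 in wild type and 7.64, 7.69 and 7.49 in knockout. Cdc6, the ATPase that works with CDT1 at the origin, had one of 0.07 (-0.07 to 0.21). Of the 6 origin recognition subunits, 2 were below 0 and 4 above, from -0.12 to 0.13. Orc4 had the lower end of that range, with 10.15, 10.21 and 10.17 in wild type and 10.12, 10.03 and 10.02 in knockout, groups that do not overlap (limma adjusted p = 0.194). Orc5 had the upper end, with 9.0, 9.17 and 9.0 in wild type and 9.14, 9.25 and 9.18 in knockout, and the groups overlap at the second wild-type array. Orc1, the subunit whose amount follows the cell cycle, had a difference of 0.09 (-0.11 to 0.28), the widest interval of the 6. Within licensing, then, the gene for 1 loader was lower and no other member passed.

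The MCM subunits of the replicative helicase had small differences. All 6 subunits of the ring, Mcm2 to Mcm7, had differences below 0, from -0.16 to -0.02, and 0 passed. Mcm2 read 10.30, 10.14 and 10.24 in wild type and 10.14, 10.09 and 9.97 in knockout, groups that just do not overlap (difference -0.16, SE 0.06, limma adjusted p = 0.157). Mcm5 read 10.32, 10.20 and 10.32 in wild type and 10.19, 10.15 and 10.12 in knockout, again without overlap (difference -0.13, SE 0.05, limma adjusted p = 0.182). The groups of the other 4 subunits overlap, and Mcm6 was nearest to 0 with a difference of -0.02 (95% interval -0.12 to 0.08). The direction of Mcm6 turned after repeated quantile normalization, where its difference was 0.01. With 1 array left out, Mcm3, Mcm4 and Mcm6 each reached a difference above 0 (at most 0.007, 0.03 and 0.0008), and over the whole list 14 members changed sign in at least 1 such fit. Mcm10, a scaffold that helps to activate the helicase, had a difference of -0.13 (-0.29 to 0.04). Mcm8, a paralogue that works in repair rather than in the ring, had one of 0.12 (-0.03 to 0.26), with 8.37, 8.29 and 8.36 in wild type and 8.48, 8.53 and 8.36 in knockout.

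Among the genes that turn the loaded ring into an active helicase, 7 of 9 differences lay below 0 and 0 members passed. Cdc7, the kinase that phosphorylates the MCM ring, read 9.43, 9.48 and 9.34 in wild type and 9.27, 9.18 and 9.23 in knockout. Its groups do not overlap, and the difference was -0.19 (SE 0.06, limma adjusted p = 0.0839). Dbf4, its activating subunit, had a difference of -0.07 with overlapping groups (-0.25 to 0.11). Gins1 read 8.48, 8.61 and 8.58 in wild type and 8.37, 8.42 and 8.31 in knockout, without overlap (difference -0.19, SE 0.06, limma adjusted p = 0.116). Gins2 also had groups without overlap, with 8.75, 8.79 and 8.79 against 8.68, 8.65 and 8.65, while Gins3 and Gins4, the other subunits of the same complex, had differences of 0.02 and -0.05. Cdc45, the partner of GINS at the fork, had a difference of -0.02 (-0.14 to 0.10). Ccne1, which encodes cyclin E1, and its kinase Cdk2 had differences of -0.06 and 0.03, and both have overlapping groups.

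Of the polymerase and primase genes, 0 passed. Their 8 differences ran from -0.09 to 0.14 with a median of -0.03. Prim1, the catalytic subunit of primase, read 9.86, 9.83 and 9.87 in wild type and 9.84, 9.86 and 9.84 in knockout, a difference of -0.01 (95% interval -0.11 to 0.09). Its sign turned after repeated quantile normalization. Prim2, the large subunit of primase, had the lowest difference of this set and groups that do not overlap. Pola1 and Pola2, subunits of the polymerase that primes each strand, had differences of -0.03 and -0.05. Pold1 and Pold2 of the lagging strand polymerase had -0.03 and 0.07. Pole, the catalytic subunit of the leading strand polymerase, had -0.06, while its partner Pole2 was the only member of the whole list with all knockout arrays above all wild-type arrays. Pole2 read 8.62, 8.54 and 8.66 in wild type and 8.74, 8.81 and 8.68 in knockout (difference 0.14, SE 0.06, limma adjusted p = 0.237).

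Pcna, the sliding clamp that tethers the polymerases, read 11.56, 11.46 and 11.53 in wild type and 11.36, 11.40 and 11.33 in knockout. The knockout arrays lay just below the wild-type arrays, with a difference of -0.16 (SE 0.05, 95% interval -0.26 to -0.05) that did not pass (limma adjusted p = 0.0730), though it did when arrays were weighted by their quality (limma adjusted p = 0.0495). Of the clamp loader, Rfc1, the largest subunit, read 9.74, 9.64 and 9.61 in wild type and 9.59, 9.44 and 9.51 in knockout (difference -0.15, SE 0.06, limma adjusted p = 0.167). The groups of Rfc1 do not overlap, whereas those of Rfc2, Rfc3 and Rfc5 do, with differences of -0.03, -0.06 and -0.06. The single-strand binding genes Rpa1 and Rpa2 had differences of 0.00 and -0.00, with 95% intervals of -0.10 to 0.10 and -0.12 to 0.12. Rpa1 read 9.77, 9.75 and 9.73 in wild type and 9.78, 9.77 and 9.72 in knockout, and was -0.02 with each array centred on its median.

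Behind the fork, Uhrf1 read 9.63, 9.46 and 9.52 in wild type and 9.24, 9.29 and 9.08 in knockout. The groups do not overlap, and the third knockout array was the lowest. Uhrf1 fell by 0.33 on the log2 scale (SE 0.07, limma adjusted p = 0.0211), a 1.26-fold difference with a 95% interval of 1.13 to 1.40. The call was lost in 3 of the 6 fits with 1 array removed. Removing wild-type replicate 1 gave an adjusted p of 0.101 (difference -0.28). Removing wild-type replicate 3 gave 0.0506 (-0.34), and removing knockout replicate 1 gave 0.0501 (-0.35). It passed in the remaining fits, and over the 6 fits the difference ran from -0.37 to -0.27. Uhrf1 also did not pass without the intensity trend (limma adjusted p = 0.0833) or with each probe set tested on its own (limma adjusted p = 0.0789).

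Fen1, the nuclease that trims the flaps of Okazaki fragments, read 7.86, 7.88 and 7.81 in wild type and 7.59, 7.80 and 7.68 in knockout (difference -0.16, SE 0.07, limma adjusted p = 0.270). Its other probe set had a difference of -0.18 and did not pass either. Lig1, the ligase that seals the fragments, read 9.57, 9.49 and 9.69 in wild type and 9.46, 9.53 and 9.36 in knockout, and the groups overlap (difference -0.13, limma adjusted p = 0.296). Fen1, Lig1 and Uhrf1 thus all had negative differences, of which that of Uhrf1 passed.

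The genes of nucleotide supply did not share a direction. Tk1, the thymidine kinase of S phase, read 9.64, 9.49 and 9.66 in wild type and 9.46, 9.43 and 9.48 in knockout (difference -0.14, SE 0.06, limma adjusted p = 0.198), and its groups do not overlap. Tyms, which makes thymidylate, had a difference of -0.10 (95% interval -0.26 to 0.07). Rrm1 and Rrm2, the subunits of ribonucleotide reductase, had differences of 0.04 and 0.10, and both have overlapping groups. In Rrm2 the first knockout array, at 9.84, lay above the other 5 arrays, which read 9.57 to 9.66. Its other probe set, at 4.67 to 5.25, had a difference of -0.16 and did not pass. Pole and Rpa1 also have another probe set, with differences of -0.19 and -0.08 that did not pass.

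**Figure D2:**
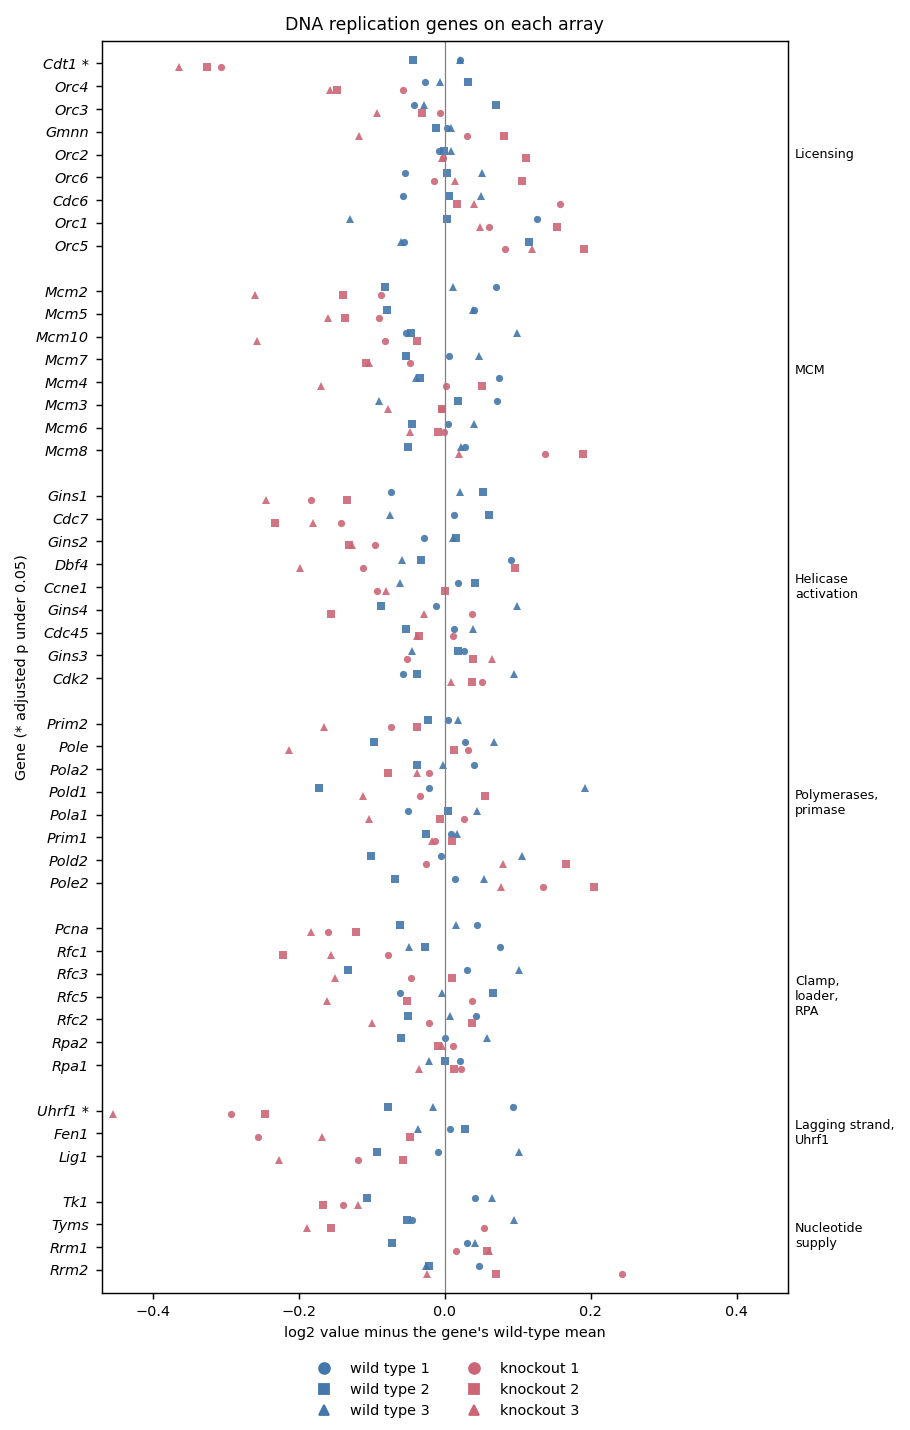
Log2 value of each of the 48 replication genes on each array, after subtracting that gene's wild-type mean, with wild type in blue, knockout in red and the marker shape giving the replicate number. The knockout points of Cdt1 and Uhrf1 are set apart on the left, those of most other genes mix with the wild-type points, and the red triangles of knockout replicate 3 are often the lowest.

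Counted over the list, 13 of 48 members had all knockout arrays below all wild-type arrays (27.1%, against 13.1% of all genes) and 1 had them above (2.08%, against 11.8%). Differences lay below 0 for 35 members (72.9%, against 50.9%). These counts are descriptions of a list whose genes share a cell cycle phase and are not independent. They changed with the scaling and with 1 array. After repeated quantile normalization, 10 members lay wholly lower and 1 wholly higher (20.8% and 2.08%, against 13.8% and 11.9% of all genes). Without knockout replicate 3, 29 of 48 differences were below 0 (60.4%, against 50.6% of all genes), 13 members lay wholly lower and 4 wholly higher (27.1% and 8.33%, against 17.7% and 17.4%), and the median difference of the members was -0.01.

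Knockout replicate 3 was the lowest of the 6 arrays for 22 of 48 members (45.8%), as it was for 22.4% of all genes. Relative to each gene's wild-type mean, the median over members was 0.01, -0.04 and 0.02 in wild type and -0.02, -0.01 and -0.10 in knockout. The first 2 knockout arrays lay within the range of the wild-type arrays, and the third lay below it. That array also had the highest choroid plexus values. The mean of the 9 choroid plexus markers measured of 12 listed was 7.98, 7.21 and 7.33 in wild type and 9.05, 7.34 and 9.68 in knockout, and Ttr, the abundant transthyretin of that tissue, read 12.30, 8.08 and 8.91 in wild type and 13.77, 9.19 and 13.92 in knockout. The count of these 9 markers past the limma threshold was 0, and at an unadjusted p under 0.05 it was 6, with differences from 0.08 to 2.53. The 8 markers of meninges and fibroblasts had mean values of 9.09 to 9.17 in wild type and 9.22, 9.29 and 9.64 in knockout, and the 7 measured of the oligodendrocyte lineage 9.36 to 9.46 and 8.99, 9.29 and 8.73. The part of these tissues in the replication values was not tested beyond 2 fits chosen after the values were seen. With the mean of the choroid plexus markers added as a covariate, Cdt1 had a difference of -0.33 (limma adjusted p = 0.0452) and Uhrf1 one of -0.28 (limma adjusted p = 0.145). Without the 3 arrays on which Ttr lay above 10, a fit with 1 knockout array that is assumed to vary like the wild type, Cdt1 had a difference of -0.31 and Uhrf1 one of -0.20, and 0 members passed (limma adjusted p = 0.218 and 0.470).

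**Figure D3:**
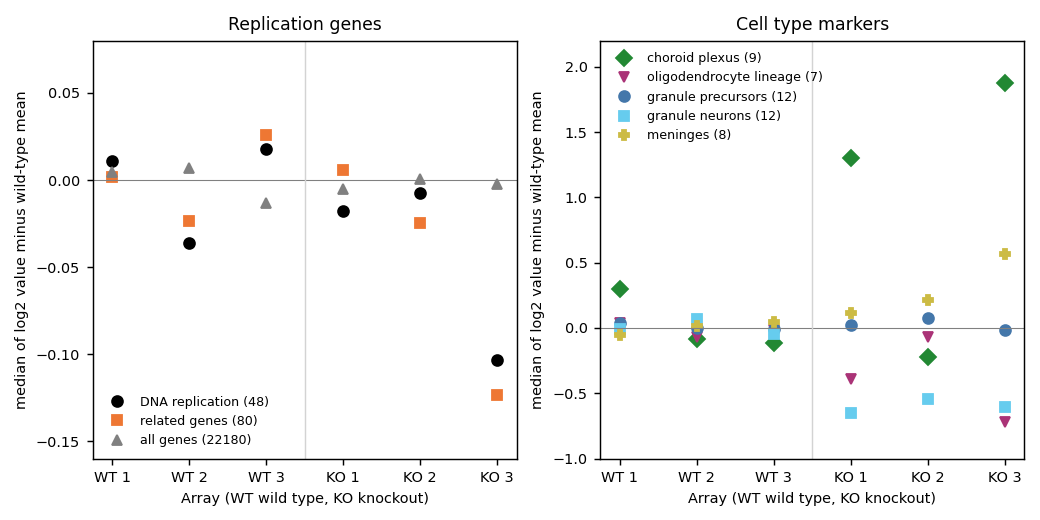
Median over genes of the log2 value minus the gene's wild-type mean on each array, for the 48 replication genes, the 80 related genes and all genes (left) and for 5 lists of cell type markers (right, on a wider scale). On the left the replication genes of knockout replicate 3 stand at -0.10 while the other arrays lie between -0.04 and 0.02, and on the right the choroid plexus markers of knockout replicates 1 and 3 stand above the other arrays.

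The 12 markers of granule neuron precursors had a mean of 10.58 to 10.61 in wild type and 10.56 to 10.67 in knockout, with 3 that rose, 4 that fell and 5 that did not pass. Atoh1, the transcription factor that keeps precursors dividing, rose by 0.52, and Ccnd1 and Ccnd2, the D cyclins that release E2F, changed by 0.24 and -0.33. Among the remaining calls, Cxcr4 rose by 0.70, and Sfrp1, Zic1 and Zic2 fell by 0.64, 0.24 and 0.25. Of 12 markers of postmitotic granule neurons, 10 fell and 0 rose (83.3% and 0%, against 3.94% and 2.72% of all genes). Their median difference was -0.58, and their mean was lower on every knockout array (10.10 to 10.26) than on any wild-type array (10.71 to 10.88). The replication genes had a median difference of -0.04 in the same samples in which these markers had one of -0.58. The marker lists were chosen with earlier results of these data known, so this contrast is a description and was not tested. Of these cyclins and Atoh1, Atoh1 passed whichever array was left out, Ccnd2 in 5 of the 6 such fits and Ccnd1 in 1 (adjusted p up to 0.0779 and 0.121). With the choroid plexus covariate, 3 of the 7 calls among precursor markers and 7 of the 10 among markers of postmitotic granule neurons remained. Over all genes, 282 passed lower and 241 higher in that fit, against 875 and 604 in the main fit. The fit without the arrays with Ttr above 10 leaves 1 knockout array, so its calls are not counted for these markers.

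The wider set of replication and division genes was compared through 5 further lists. Of their 80 measured genes, 6 fell (7.5%, against 3.94% of all genes), 1 rose (1.25%, against 2.72%) and 73 did not pass, with a median difference of -0.05. With the choroid plexus covariate, 2 of these 7 calls remained, E2f1 and E2f2 (limma adjusted p = 0.0225 and 0.0242), and 5 were lost, those of Rpa3, Rnaseh2b, Nme1, Skp2 and Cenpf (limma adjusted p = 0.152, 0.0665, 0.139, 0.0511 and 0.0988). Over all genes, 282 passed lower and 241 higher in the covariate fit, against 875 and 604 in the main fit, so calls were fewer across the whole table. Calls are not counted here without the arrays with Ttr above 10, which leaves 1 knockout array. In that fit E2f1 and E2f2 had differences of -0.44 and -0.47. Those of Rpa3, Rnaseh2b, Nme1 and Cenpf were -0.30, -0.49, -0.25 and -0.23, and that of Skp2 was 0.26. In the list of other fork and origin genes, 2 of 25 fell and 0 rose. Rpa3, the smallest subunit of the single-strand binding protein, read 10.05, 10.21 and 10.18 in wild type and 9.67, 9.90 and 9.87 in knockout and fell by 0.33 (SE 0.07, limma adjusted p = 0.0211). Its other probe set had a difference of -0.27 and did not pass when probe sets were tested singly (limma adjusted p = 0.116). Unlike Rpa3, the larger subunits Rpa1 and Rpa2 had differences of 0.00 and -0.00, though the difference between these genes was not tested. Rnaseh2b, a subunit of the nuclease that removes ribonucleotides from DNA, read 10.03, 10.11 and 10.26 in wild type and 9.89, 9.70 and 9.88 in knockout and fell by 0.31 (SE 0.07, limma adjusted p = 0.0360). Rpa3 did not pass in 3 of the 6 fits with 1 array removed, where wild-type replicate 2 (adjusted p = 0.0806), wild-type replicate 3 (0.0628) or knockout replicate 1 (0.0570) was absent, and Rnaseh2b kept it in 1 of the 6 fits, that without knockout replicate 3 (adjusted p of the others 0.0550 to 0.0944).

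Of the 10 genes of chromatin assembly behind the fork, 0 passed, and the smallest p values belonged to the histone chaperone genes Nasp and Asf1b, with differences of -0.17 and 0.15. Dnmt1, the maintenance methyltransferase that UHRF1 recruits, had a difference of -0.01 (95% interval -0.15 to 0.13). Of 11 other genes of nucleotide synthesis, 1 fell. This was Nme1, a nucleoside diphosphate kinase, which read 8.35, 8.24 and 8.02 in wild type and 7.73, 7.88 and 7.81 in knockout (difference -0.40, SE 0.09, limma adjusted p = 0.0310). It passed in 2 of the 6 fits with 1 array removed, and in the others the adjusted p was 0.126 and 0.104 (the first and the second wild-type array absent) and 0.0991 and 0.0600 (the first and the third knockout array absent). Dtymk, the thymidylate kinase, had the next smallest p of that list and a difference of 0.13.

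The genes that control entry into S phase held the largest differences of these lists. Of 11 measured, 2 fell, 1 rose and 8 did not pass. E2f2, an activating E2F factor, read 8.27, 8.28 and 8.31 in wild type and 7.69, 7.83 and 7.81 in knockout and fell by 0.51 (SE 0.07, limma adjusted p = 0.00221). E2f1, the best known activating E2F, read 9.74, 9.55 and 9.69 in wild type and 9.31, 9.18 and 9.19 in knockout and fell by 0.43 (SE 0.06, limma adjusted p = 0.00454). Both passed whichever single array was left out, while E2f3, the third activating factor, had a difference of -0.06 (95% interval -0.21 to 0.10). Skp2, the substrate receptor of a ubiquitin ligase that targets CDT1 and p27, read 10.01, 10.04 and 10.14 in wild type and 10.40, 10.35 and 10.30 in knockout and rose by 0.29 (SE 0.05, limma adjusted p = 0.0120). Removing wild-type replicate 1 took the adjusted p of Skp2 to 0.0695, and removing knockout replicate 1 took it to 0.0510.

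Of 23 mitosis genes, 1 fell and 0 rose, with a median difference of -0.06. Cenpf, a kinetochore protein, read 10.18, 10.12 and 10.20 in wild type and 9.93, 9.93 and 9.84 in knockout (difference -0.27, SE 0.05, limma adjusted p = 0.0132), and with wild-type replicate 1 removed its adjusted p was 0.0695. Anln and the proliferation marker gene Mki67 had the next smallest p and differences of 0.19 and -0.14. The replication list and the mitosis list therefore stood at -0.04 and -0.06, and the difference between these medians was not tested.

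**Figure D4:**
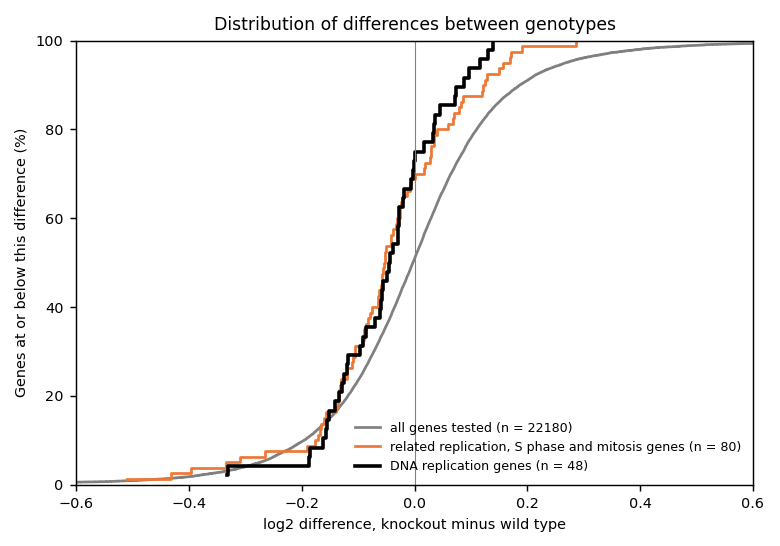
Cumulative share of genes (percent) by log2 difference between knockout and wild type, for the 48 replication genes (black), the 80 related genes (orange) and all 22180 genes tested (grey). The black curve is steeper than the grey one and stays between -0.33 and 0.14, and at 0 it has reached 72.9% against 50.9% for all genes.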

How the data were processed

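RNA from whole cerebellum (3 samples per genotype) was measured on 6 one-colour expression arrays. The deposited values are log2 expression values per probe set, which the authors normalized with RMA in oligo, per the submitters' processing notes, with versions not stated there. The array medians lay between 7.25 and 7.29. Of 41345 probe sets, 23521 were annotated to 1 symbol, 1814 to several and 16010 to none. Each of the 22180 genes was represented by its single-symbol probe set with the highest mean. Genotypes were compared with limma 3.58.1 (R 4.3.3; lmFit, eBayes with an intensity trend, Benjamini-Hochberg adjustment over all genes, threshold 0.05). In simulated data, where 21980 of 22180 genes had no shift, this fit called 23.9% of genes shifted by 0.3 on the log2 scale, 47.8% at 0.5 and 87.9% at 1. The shifted genes were drawn from all genes, whose median SE was 0.083 against 0.058 for the members. They were also fewer than the genes that passed in the data. These rates are therefore not the share of members that would be called. Array number and probe design limit the precision. The members and lists were chosen with earlier results of these data known. Values by array are given for members that passed, the 15 with the smallest p, the 3 highest and lowest differences and members compared within a complex; genes of the related lists are named where they passed or had the 2 smallest p of a list, and a few others for their role. Alternatives covered scaling, filters, probe set choice, the prior, array weights and single arrays. The labels do not state that replicate numbers pair samples, so the main fit had no block. Deviations of same-numbered arrays correlated at 0.01, 0.03 and -0.13, which cannot settle whether they share a litter or day.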

Additional observations from a re-analysis of the deposited data

How the results depend on the processing

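In the main fit 2 members passed lower, and 0 passed higher in that fit or under any alternative run. Array weights raised the count of members lower to 3, with Pcna gained. Uhrf1 was the member lost wherever the count was 1. Without the intensity trend, 1 member, 310 genes lower and 184 higher passed. With each probe set on its own these were 1, 360 and 161. At an adjusted p under 0.10, 4 members were lower, with 1290 genes lower and 1023 higher. With the mean of the choroid plexus markers added as a covariate, 1 member, 282 genes lower and 241 higher passed, and without the arrays with Ttr above 10, which leaves 1 knockout array assumed to vary like the wild type, 0, 124 and 112; both alternatives were chosen after seeing the data. With 1 array left out, 1 to 2 members, 366 to 800 genes lower and 199 to 478 genes higher passed, and the median difference of the members ran from -0.06 to -0.01. A fit with the replicate number as a block had 2 members lower and 0 higher, among 1078 genes lower and 723 higher. No array correlated best with the array of its own number, which cannot settle whether same-numbered arrays share a litter or day. Of 864 pairs of a member and 1 of 18 settings, 853 kept their side of the threshold, 8 lost the call and 3 gained it. Only the 2 members that passed in the main fit could lose a call, so all 8 losses were theirs. The other 46 members could only gain one, so the count of 853 does not measure how stable the 2 calls were. The cause of the changed counts was not tested. With 3 arrays a group, the median SE of a difference was 0.058 over the members and 0.083 over all genes.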
